A study of Mus musculus with 16 samples.

Results

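The genes described here are the solute carriers of mouse blood neutrophils, the membrane proteins that bring sugars, amino acids, ions, metals and metabolites across the cell surface and the membranes of organelles. They were chosen by their symbol, which starts with Slc and a digit, and by their level, at least 10 raw counts in at least 3 of 16 RNA-Seq libraries. No difference between groups entered that choice, but 2 members, Slc29a2 and Slc30a1, reached 10 counts in stimulated libraries only. It left 152 of the 357 Slc symbols (42.6%) in a table of 23337 gene symbols. Of the other 205 symbols, 149 had 0 counts in every library. The 152 members comprised 147 transporters of 43 families and 5 genes that carry an Slc symbol but are not transporters (Slc2a4rg-ps, Slc4a1ap, Slc7a6os, Slc9a3r1 and Slc9a3r2). The count threshold itself was crossed by a narrow margin in Slc2a8, Slc32a1, Slc30a1, Slc7a6 and Slc6a18, whose third-highest count was 10, and it left out Slc7a8 (third-highest count 8), Slc25a18 (7), Slc23a1 (6), Slc25a2 (5) and Slc2a9 (5).

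Neutrophils were purified from blood of 8 week old C57/Bl6 mice by magnetic negative selection, and bulk RNA was sequenced. LTβRΔN mice carried Ltbr fl/fl alleles and Cre under the Mrp8 promoter, which is active in neutrophils, and control mice carried Ltbr fl/fl alleles without Cre. Of the 7 control libraries 3 are labelled unstimulated and 4 stimulated, and of the 9 LTβRΔN libraries 4 and 5. Per the protocol, cells were held for 2 h in 100 ng/ml of TNF, 50 ng/ml of IL-6 and 100 ng/ml of GM-CSF, with LIGHT (a ligand of the TNF superfamily, 500 ng/ml) either added or left out, whereas the design text names the cytokines as the treatment, and no label states for a given library whether LIGHT was added. Groups are therefore named stimulated and unstimulated, as labelled. The labels do not say whether libraries came from separate mice, so p-values measure the spread between these libraries, which may be technical. A number in the column names is shared by 7 pairs of an unstimulated and a stimulated library, and its meaning is not stated. The fit reported does not use it, and a fit that does, which changed some calls, is described at the end.

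Neutrophils rely mainly on glycolysis, so that glucose enters by carriers of the SLC2 family and lactate leaves by the SLC16 family. Amino acid exchangers such as the cystine/glutamate antiporter feed glutathione synthesis, and ferroportin and NRAMP1 (symbols Slc40a1 and Slc11a1) move iron out of the cell and out of the phagosome. The SLC25 family carries metabolites, phosphate, ADP and ATP across the inner mitochondrial membrane.

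Libraries held 1094335 to 11932653 counts, and members took 0.823% to 1.14% of them. Depth was unequal between groups. The median was 7726335 counts in unstimulated and 8255787 in stimulated control libraries, and 5183736 and 2408608 in LTβRΔN libraries. Ltbr fell from 116 CPM (mean of 3) in unstimulated control to 8.22 CPM (mean of 4) in unstimulated LTβRΔN libraries, where CPM is a count scaled to the library total after TMM normalization, per 1000000 counts. Cish, a target of GM-CSF signalling, rose with stimulation from 1.01 to 435 CPM in control and from 2.44 to 379 CPM in LTβRΔN libraries. The 6 neutrophil markers together were between 43990 and 74660 CPM in each library, the T cell markers between 4.53 and 15.9 CPM and the monocyte markers between 341 and 563 CPM. Csf1r (group means 262.4 to 345.9 CPM) and Ly6c2 (112.8 to 126.5 CPM) made up nearly all of the monocyte sum. The other monocyte markers, Ccr2, F13a1 and Ms4a6c, reached at most 2.83 CPM, and the T cell marker Cd3e was at 0 in every library. The B cell markers reached at most 1.6 CPM, with Cd79b and Ms4a1 at 0 in every library, and Slc4a1, the anion exchanger of red blood cells, had 3 counts in all. The 5 platelet markers were highest in a stimulated control library, number 82, at 194 CPM against at most 23.2 CPM in the other 3 groups. The sum of the 6 immature neutrophil markers was highest there too, at 764 CPM. Camp, Ltf and Ngp gave nearly all of it, since Prtn3 reached at most 11.6 CPM, and Mpo and Elane were at 0 in every library. The index in the library titles is S521 in every stimulated and S520 in every unstimulated LTβRΔN library, so that index and stimulation cannot be told apart in LTβRΔN neutrophils. Among unstimulated control libraries, 71 and 72 carry S520 and 73 carries S521.

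The starts of 3 members are shown first, because Slc7a11 rose most among members of high level, Slc3a2 encodes the partner of its protein and fell, and Slc39a1 rose and was the only one of 10 changed members with a window to hold a κB motif there. The sequences are from RefSeq on GRCm38.p6, 5′ to 3′ on the strand of the gene, from 250 bases before to 50 bases after the start of the transcript, and capitals mark the motif matches named below.
Slc7a11 (chr3:50443564-50443863, minus strand): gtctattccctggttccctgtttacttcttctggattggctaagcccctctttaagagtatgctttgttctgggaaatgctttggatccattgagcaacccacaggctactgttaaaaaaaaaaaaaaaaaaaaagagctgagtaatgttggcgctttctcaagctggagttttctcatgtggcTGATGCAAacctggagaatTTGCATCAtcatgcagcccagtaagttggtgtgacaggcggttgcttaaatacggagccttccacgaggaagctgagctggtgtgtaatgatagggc
Slc3a2 (chr19:8713848-8714147, minus strand): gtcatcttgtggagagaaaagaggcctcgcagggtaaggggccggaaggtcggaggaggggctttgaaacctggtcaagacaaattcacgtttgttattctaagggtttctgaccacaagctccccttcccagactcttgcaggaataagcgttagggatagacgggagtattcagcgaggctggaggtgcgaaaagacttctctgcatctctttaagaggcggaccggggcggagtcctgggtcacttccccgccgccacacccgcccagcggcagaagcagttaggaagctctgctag
Slc39a1 (chr3:90247942-90248241, plus strand): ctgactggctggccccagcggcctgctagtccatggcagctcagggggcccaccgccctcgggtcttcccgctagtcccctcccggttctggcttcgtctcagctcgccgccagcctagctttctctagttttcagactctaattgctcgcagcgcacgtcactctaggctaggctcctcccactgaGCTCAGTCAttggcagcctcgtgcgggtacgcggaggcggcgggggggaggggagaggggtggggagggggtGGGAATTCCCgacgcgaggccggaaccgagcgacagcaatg
The amino acid response motif TGATGNAA, searched on both strands like every motif here, matched at 2 places of the Slc7a11 window, beginning 66 and 47 bases before the start, on opposite strands. It was found in 3.97% of all 32851 windows of this length and in 5 of 151 windows of members (3.31%). The antioxidant response motif TGACNNNGC and the κB motif each matched at 1 place of the Slc39a1 window, beginning 63 bases before the start and at base 10 of the transcript. The antioxidant response motif stood in 12.4% of all windows and 18.5% of the members' windows, the κB motif in 8.46% and 11.9%, and the AP-1 motif TGANTCA in 7.81% and 5.3%. No match of the 4 motifs was found in the Slc3a2 window, nor in those of Slc2a1, Slc2a6, Slc16a3, Slc16a14, Slc9a3r1 and Slc29a2. Of 2 Slc20a1 windows 1 held an antioxidant response match. RefSeq windows were held for 115 of 152 members, and for 10 of the 12 members that changed with stimulation (Slc15a3 and Slc40a1 had none). These matches are descriptions of the sequence only.

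Per length, a few carriers made up most of the solute carrier RNA. On the scale of RPKM (CPM per kilobase of exon, mean of 16 libraries) the highest members were Slc25a5, the mitochondrial ADP/ATP carrier, at 260.5 ± 21.9 (SD, n = 16), Slc2a6, a hexose carrier of lysosomes, at 250.4 ± 48.4, Slc9a3r1, the scaffold NHERF1, which binds membrane transporters, at 238 ± 64.2, and Slc16a3, the lactate exporter MCT4, at 162 ± 44.6. By the longest transcript in place of all exons, Slc40a1 moved from place 7 to place 4, at 206.5 RPKM. The first 4 were followed by Slc11a1 (109), Slc2a3 (98.9), Slc40a1 (90.1), Slc25a11 (79.8), Slc2a1 (77.5) and Slc44a2 (49.6). The first 10 members held 61% of the RPKM summed over all members, 38 members reached 10 RPKM, and 52 lay under 1 RPKM. Not every step of this order exceeded the spread. Slc25a5 was above Slc2a6 in 9 of 16 libraries and Slc2a6 above Slc9a3r1 in 11 of 16, and Slc25a11 was above Slc2a1 in 7 of 16. The step from Slc16a3 to Slc11a1 went the same way in 14 of 16 libraries. Slc25a5 shares coding sequence with its paralog Slc25a4 and has processed copies in the genome, so that its count is uncertain. Exons of 11 of 42 named members overlap another gene, in most cases on the opposite strand, among them Slc2a1, Slc20a1, Slc25a11 and Slc15a3, and without strand reads of such a pair cannot be told apart.

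**Figure D1:**
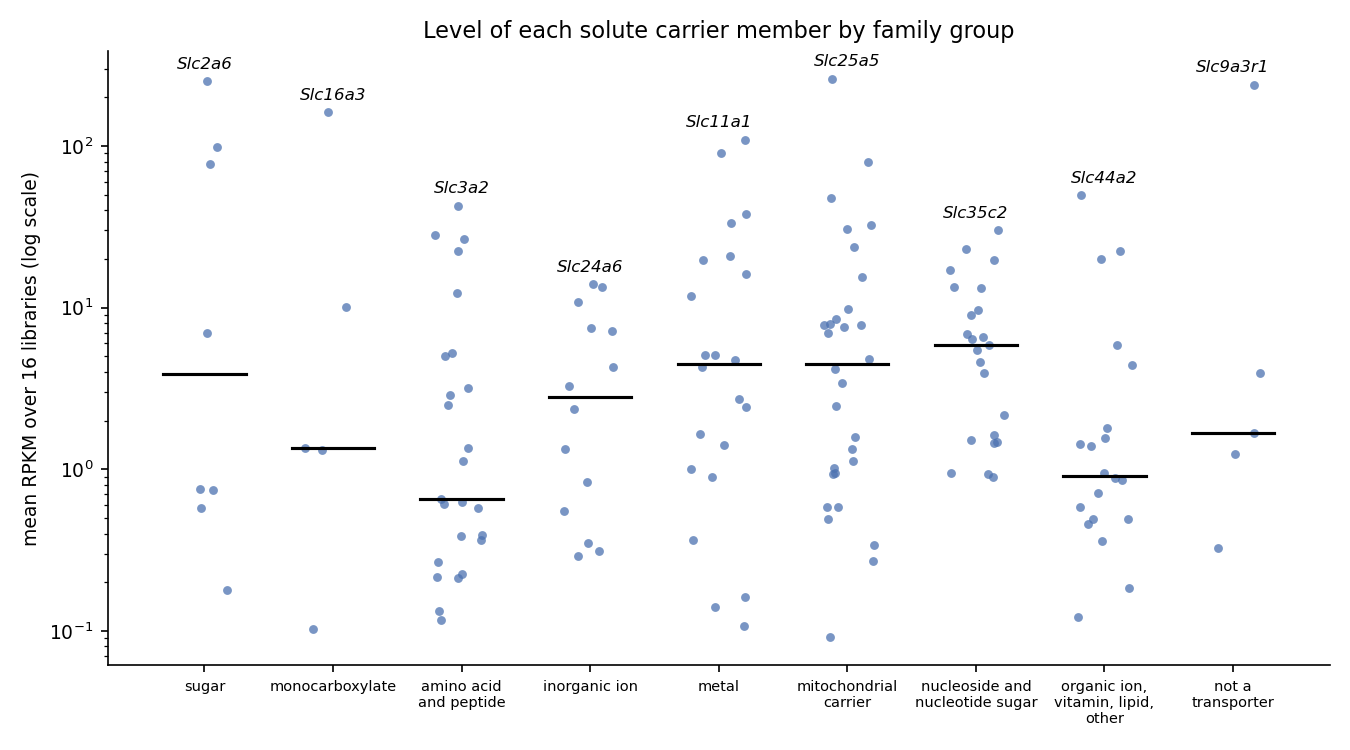
Mean RPKM over 16 libraries (log scale) of each of the 152 members, as points, by family group, with the median of the group as a bar and its highest member named. Medians lay between 0.649 (amino acid and peptide) and 5.91 RPKM (nucleoside and nucleotide sugar), while the highest members reached 260.5 (Slc25a5) and 250.4 RPKM (Slc2a6).

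By family group, the mitochondrial carriers (30 members) held 24.6% of the members' RPKM, the sugar carriers (8) 18.8%, the metal carriers (22) 15.9%, the nucleoside and nucleotide sugar carriers (23) 8%, the monocarboxylate carriers (5) 7.52%, the amino acid and peptide carriers (25) 6.81%, the carriers of organic ions, vitamins, lipids and others (20) 4.93%, the inorganic ion carriers (14) 2.87% and the non-transporters (5) 10.6%, of which Slc9a3r1 gave nearly all. Within each group, levels spanned more than 1 order of magnitude. Among glucose carriers Slc2a6, Slc2a3 and Slc2a1 stood at 77.5 RPKM or more, whereas the remaining 5 sugar carriers were at 6.96 RPKM or less. The amino acid exchanger subunit Slc7a5 (LAT1 light chain, 1.36 RPKM) and the glutamine carrier Slc1a5 (1.13 RPKM) were low in these cells, and Slc3a2, the heavy chain that both Slc7a5 and Slc7a11 need to reach the surface, was the highest amino acid member (42.5 RPKM). Of 37 carriers listed for known roles, 7 were not members, including the lactate carrier Slc16a1, the iron carrier Slc11a2 and the zinc carrier Slc39a8.

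The first comparison asked which solute carriers changed with stimulation in neutrophils with an intact receptor. In control neutrophils, 11 of 149 members tested passed an adjusted p of 0.05 (7.38%; edgeR quasi-likelihood test, Benjamini-Hochberg adjustment over 9213 genes), against 3.48% of all genes tested. Higher with stimulation were 8 members, namely Slc7a11, Slc15a3, Slc2a1, Slc2a6, Slc20a1, Slc39a1, Slc9a3r1 and Slc29a2, against a background of 2.82% of genes. Slc29a2 met the count rule through stimulated libraries only, so its place among the 8 and in the 7.38% follows in part from that rule. Lower were 3 members, Slc16a3, Slc3a2 and Slc40a1, against 0.662% of genes. Among the 79 members with a mean of at least 10 CPM, which do not include Slc29a2, 12.7% passed, against 5.48% of all genes of that level. The median log2 fold change of the members was -0.15, that of all genes -0.02. With scaling by library totals alone, which moved the median of all genes to -0.27 on the log2 scale, 5 members were called higher and 5 lower. Without library 82, in which platelet and immature neutrophil markers were highest, 9 members passed, with Slc39a1 and Slc40a1 lost, and the part of those cells in the other calls was not tested. The smallest counts, 7, were found without library 72 or without library 73. With the library index as a covariate fewer members passed. Only unstimulated control libraries carry both indexes, so that fit in effect sets the 4 stimulated libraries against library 73 alone. Calls that rest on 1 unstimulated library are not listed. Against library 73 alone, the unstimulated control library of the same index as the stimulated ones, all 4 stimulated libraries lay on the side of the call for each of the 11 members. Library 73 also entered the test that made these calls, so this is a description and no separate support. In bulk RNA, fewer cells that carry a transcript and less of it per cell cannot be told apart.

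In LTβRΔN neutrophils 10 of 149 members passed (6.71%; edgeR, adjusted as above), against 3.73% of all genes. Of them 6 were higher (background 2.98%) and 4 lower (0.749%). Slc7a11, Slc15a3, Slc2a1, Slc20a1, Slc39a1 and Slc9a3r1 rose in both genotypes, and Slc16a3, Slc3a2 and Slc40a1 fell in both. These 9 members were thus 9 of 11 calls in control and 9 of 10 calls in LTβRΔN neutrophils, from libraries that do not overlap. Over all genes tested, 253 were called in the same direction in both genotypes, 78.8% of the 321 calls in control and 73.5% of the 344 calls in LTβRΔN neutrophils. Slc2a6 and Slc29a2 passed in control and Slc16a14 in LTβRΔN neutrophils. The median over members was -0.10 in LTβRΔN neutrophils, that of all genes -0.03, and library totals alone (median of all genes -0.21) called 6 members higher and 8 lower. With the index as a covariate 0 passed, in a fit where index and stimulation coincide within this genotype.

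**Figure D2:**
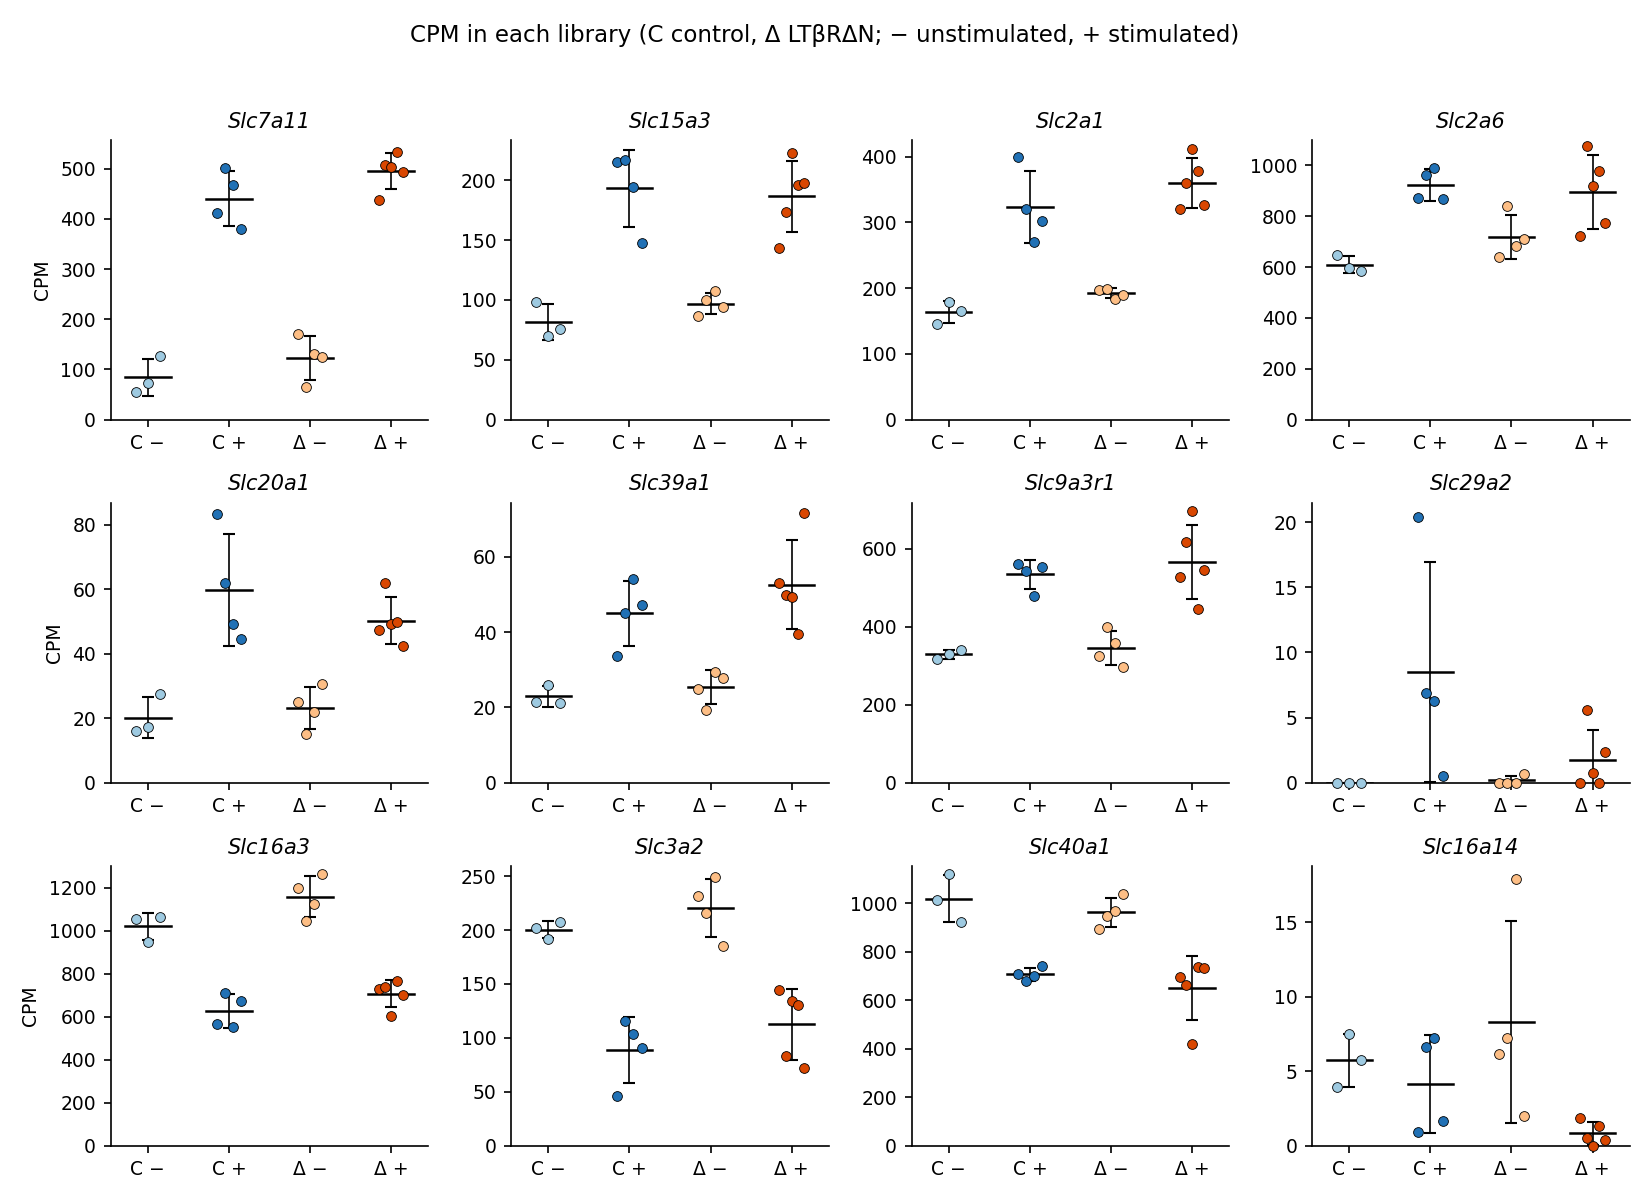
CPM in each of 16 libraries (points) for the 12 members that passed in either genotype, with the mean and SD of each group as bars, for control (C) and LTβRΔN (Δ) neutrophils without (−) and with (+) stimulation. The stimulated groups of Slc7a11 lie between 380.3 and 533 CPM, above all unstimulated libraries (54.6 to 171 CPM), and those of Slc16a3 between 551.1 and 767 CPM, below them (949.6 to 1266 CPM).

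The largest rise among members of high level was that of Slc7a11, the light chain of the cystine/glutamate antiporter, on chromosome 3 of GRCm38 from 49892526 to 50443614. Its CPM were 54.6, 72.2 and 126 in unstimulated and 413, 502, 468 and 380.3 in stimulated control libraries, and 171, 65.6, 131 and 125 in unstimulated and 437, 507, 504, 533 and 494 in stimulated LTβRΔN libraries. The groups did not overlap in either genotype. The log2 fold change was 2.39 (SE 0.26, edgeR adjusted p = 5.15e-07) in control and 1.99 (SE 0.22, edgeR adjusted p = 9.55e-07) in LTβRΔN neutrophils. Library 73, the unstimulated control library with index S521, was the highest of its group for Slc7a11, and against it alone the log2 ratio of the means was 1.81.

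Slc3a2, which encodes 4F2hc, the heavy chain that pairs with Slc7a11 and with other light chains, went the other way. Its CPM were 202, 192 and 207 in unstimulated and 45.7, 115, 104 and 90.1 in stimulated control libraries. In LTβRΔN neutrophils they were 231, 216, 249 and 185 without and 145, 82.9, 134, 130.2 and 71.7 with stimulation. Every stimulated library was below every unstimulated library. The log2 fold change was -1.18 (SE 0.25, edgeR adjusted p = 0.00444) in control and -0.98 (SE 0.22, edgeR adjusted p = 0.00872) in LTβRΔN neutrophils. In terms of mean CPM, Slc3a2 exceeded Slc7a11 in unstimulated control libraries (200.5 against 84.3) and was below it in stimulated ones (88.8 against 440.5), on a scale that does not correct for length. The other light chain on the list, Slc7a5, had 2.31 ± 1.298 CPM (SD, n = 3) without and 5.39 ± 2.13 CPM (n = 4) with stimulation in control libraries and did not pass (edgeR adjusted p = 0.839).

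Slc15a3, a proton-coupled peptide and histidine carrier of endolysosomes that moves muramyl dipeptide, rose in both genotypes. Its CPM were 98.3, 69.7 and 75.8 in unstimulated and 215, 217, 194 and 148 in stimulated control libraries, and 86.3 to 107 and 143 to 223 in LTβRΔN libraries, with no overlap. The log2 fold changes were 1.25 (SE 0.18, edgeR adjusted p = 5.05e-05) and 0.95 (SE 0.16, edgeR adjusted p = 0.000365). The gene on the opposite strand that shares exon sequence with it is Tmem132a. The related carrier Slc15a4 had 30.5 ± 4.41 CPM without and 18.9 ± 4.97 CPM with stimulation in control libraries and did not pass (edgeR adjusted p = 0.405). Of 23 amino acid and peptide members tested, 2 rose, 1 fell and the remainder did not pass in each genotype. The share called was 13% in each, against 3.48% and 3.73% of all genes. The median log2 fold change was 0.01 in control and 0.21 in LTβRΔN neutrophils. The median in control changed sign with upper-quartile scaling (-0.03) and with library totals alone (-0.23). The taurine carrier Slc6a6, at 203 ± 28.8 CPM without and 275 ± 16.02 CPM with stimulation in control libraries, came nearest among those that did not pass (log2 fold change 0.44, SE 0.15, edgeR adjusted p = 0.139). The glutamine carriers Slc38a2 and Slc1a5 had log2 fold changes of -0.07 (SE 0.25) and 1.07 (SE 1.22) in control neutrophils, and the second of these rests on 3.02 and 6.32 CPM.

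The glucose carriers differed among themselves. Slc2a1 (GLUT1, the basal glucose carrier of most cells, on chromosome 4 from 119108711 to 119137983) had 146, 178 and 166 CPM in unstimulated and 399, 321, 271 and 303 CPM in stimulated control libraries. In LTβRΔN neutrophils its CPM were 198, 199, 183 and 189 without and 320.2, 360.4, 412, 379 and 326 with stimulation. All stimulated libraries were above all unstimulated ones, and the log2 fold changes of 0.98 (SE 0.14, edgeR adjusted p = 5.52e-05) and 0.90 (SE 0.13, edgeR adjusted p = 3.37e-05) had an interaction of -0.08 (SE 0.19), which did not pass. Slc2a3 (GLUT3, the high-affinity glucose carrier), whose level per length was above that of Slc2a1, did not pass. It had 849, 773 and 645 CPM in unstimulated and 618, 755, 798 and 580 CPM in stimulated control libraries, which overlapped (log2 fold change -0.14, SE 0.15, edgeR adjusted p = 0.892), and its log2 fold change was -0.31 (SE 0.13, edgeR adjusted p = 0.289) in LTβRΔN neutrophils, where it was called lower with library totals alone. Slc2a6 (GLUT6) had 647, 596 and 583 CPM in unstimulated and 871, 964, 991 and 869 CPM in stimulated control libraries, a log2 fold change of 0.60 (SE 0.14, edgeR adjusted p = 0.00897). In LTβRΔN neutrophils its groups overlapped, at 641 to 841 and 722.6 to 1075 CPM, with a log2 fold change of 0.32 (SE 0.12, edgeR adjusted p = 0.194). The difference between these changes did not pass either (interaction -0.28, SE 0.18, edgeR adjusted p = 1.0). The control call of Slc2a6 was lost with library totals alone (edgeR adjusted p = 0.174), without library 72 (0.0618) and without library 73 (0.0592). In LTβRΔN neutrophils Slc2a6 was called higher with the number in the column names as a replicate block. Of the 8 sugar carriers 2 rose in control and 1 rose in LTβRΔN neutrophils, against 2.82% and 2.98% of all genes called higher. The glucose-6-phosphate carrier Slc37a4, at 12.99 ± 9.27 and 13.7 ± 16.5 CPM in control libraries, was counted with the nucleotide sugar carriers and did not pass (edgeR adjusted p = 0.992).

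Of the monocarboxylate carriers, Slc16a3 (MCT4, which exports lactate from glycolytic cells, on chromosome 11 from 120948480 to 120960868) fell in both genotypes. Its CPM were 1053, 949.6 and 1063 in unstimulated and 565, 712, 551.1 and 673 in stimulated control libraries, and 1198, 1048, 1125 and 1266 in unstimulated and 728.9, 740.2, 602, 767 and 701 in stimulated LTβRΔN libraries. No stimulated library reached an unstimulated one. The log2 fold changes of -0.71 (SE 0.12, edgeR adjusted p = 0.000407) and -0.71 (SE 0.11, edgeR adjusted p = 7.55e-05) had an interaction of -0.0024 (SE 0.16). Slc16a14, an orphan of the same family, fell in LTβRΔN neutrophils from 6.19, 7.203, 17.9 and 1.96 CPM to 1.87, 0.495, 0, 1.35 and 0.387 CPM (log2 fold change -3.36, SE 0.92, edgeR adjusted p = 0.0398). Its spread was wide. The call was lost without any 1 of 7 of the 9 LTβRΔN libraries, with an adjusted p between 0.0532 and 0.262, the latter without library 69, which held 17.9 CPM. In control neutrophils it had 5.73 ± 1.76 and 4.11 ± 3.29 CPM (edgeR adjusted p = 0.949), and the interaction did not pass (-2.88, SE 1.31, edgeR adjusted p = 1.0). Slc16a6 had log2 fold changes of -0.31 (SE 0.28) and -0.59 (SE 0.25) and did not pass. Of the 5 monocarboxylate carriers 3 had log2 fold changes below 0 in control, of which 1 passed, and 5 in LTβRΔN neutrophils, of which 2 passed, where 52% of all genes were below 0 in each genotype. Bsg and Emb, the membrane partners of these carriers, did not pass in either genotype and had log2 fold changes between -0.22 and 0.41.

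**Figure D3:**
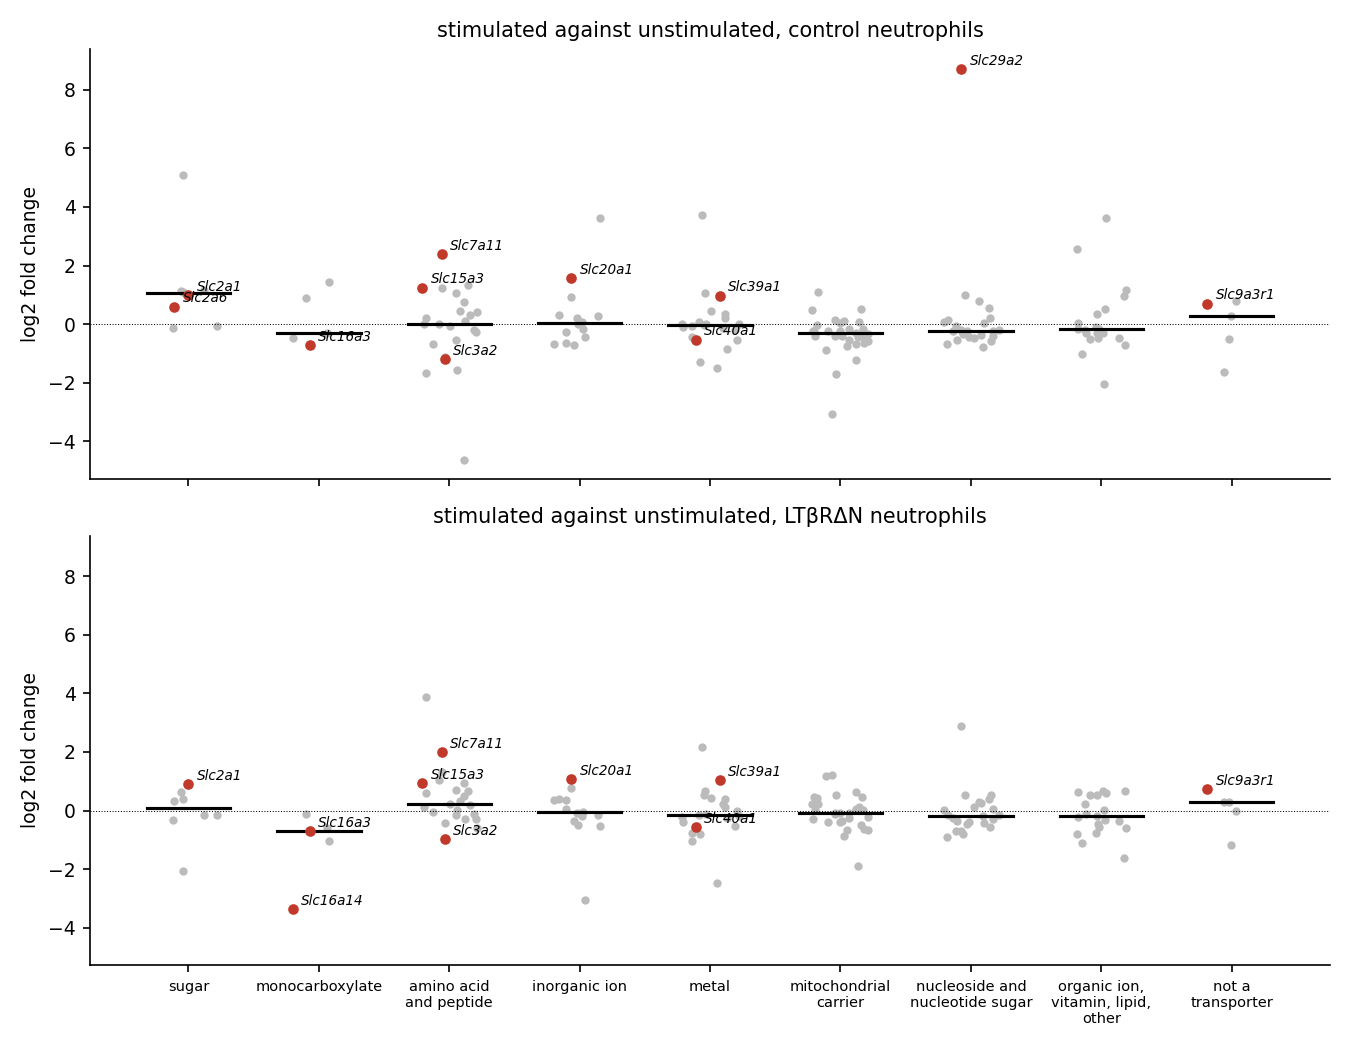
Log2 fold change of stimulated against unstimulated libraries for each of the 149 members tested, by family group, in control (upper panel) and LTβRΔN (lower panel) neutrophils, with members that passed an adjusted p of 0.05 in red and named, and the group median as a bar. The mitochondrial carriers have no red point in either panel, and the scattered points beyond 2 on the log2 scale are mostly members of low counts, and the fitted value of Slc29a2 in control, where the unstimulated group is at 0 counts, depends on the prior count and is no measure of size.

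Among the inorganic ion carriers 1 of 14 passed in each genotype (7.14%), against 3.48% and 3.73% of all genes tested. Slc20a1 (PiT1, the sodium-phosphate cotransporter and housekeeping phosphate importer, on chromosome 2 from 129198764 to 129211616) had 15.9, 17.1 and 27.5 CPM in unstimulated and 83.3, 61.9, 49.4 and 44.6 CPM in stimulated control libraries. In LTβRΔN neutrophils its CPM were 25.1, 15.2, 21.95 and 30.7 without and 47.3, 62.0, 49.3, 49.8 and 42.2 with stimulation. The groups were apart in both genotypes, with log2 fold changes of 1.57 (SE 0.29, edgeR adjusted p = 0.00111) and 1.08 (SE 0.26, edgeR adjusted p = 0.0136). The LTβRΔN call was lost without library 68 (edgeR adjusted p = 0.0601) and without library 69 (0.0558). Slc9a3r1, a scaffold and no transporter itself, rose from 317, 330.3 and 340 CPM to 561, 543, 480 and 554 CPM in control libraries (log2 fold change 0.70, SE 0.14, edgeR adjusted p = 0.00303), and by 0.72 (SE 0.13, edgeR adjusted p = 0.000516) in LTβRΔN neutrophils, without overlap. In control neutrophils its call was lost with library totals alone (edgeR adjusted p = 0.0977). Atp1b3, a β subunit of the sodium pump, was the 1 of 5 partner genes tested that passed. In LTβRΔN neutrophils it went from 183 to 261 CPM (log2 fold change 0.51, edgeR adjusted p = 0.0242) beside 0.45 (edgeR adjusted p = 0.12) in control, and the difference between these changes did not pass (interaction 0.06, SE 0.194). Of 7 other carriers tested that belong to the superfamily under other names, among them the mitochondrial uncoupling protein Ucp2, 0 passed in either genotype.

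Of 21 metal carriers tested, 1 rose and 1 fell, the same in both genotypes (9.52%), against 3.48% and 3.73% of all genes called. Slc39a1 (ZIP1, a zinc importer, on chromosome 3 from 90248172 to 90253612) had 21.5, 26.1 and 21.2 CPM in unstimulated and 33.5, 45.1, 54.2 and 47.2 CPM in stimulated control libraries. In LTβRΔN libraries its CPM were 24.8, 19.2, 29.4 and 27.8 without and 53.0, 49.8, 49.3, 39.5 and 71.7 with stimulation. The groups did not overlap, and the log2 fold changes were 0.97 (SE 0.26, edgeR adjusted p = 0.0325) and 1.04 (SE 0.23, edgeR adjusted p = 0.00749). Slc40a1 (ferroportin, the exporter of iron from cells, on chromosome 1 from 45908068 to 45926523) went from 1014, 1118 and 923 CPM to 706, 681, 697 and 742 CPM in control libraries (log2 fold change -0.53, SE 0.15, edgeR adjusted p = 0.0444). In LTβRΔN neutrophils it went from 894, 948, 967 and 1038 CPM to 693, 664, 419, 737 and 734 CPM (log2 fold change -0.56, SE 0.13, edgeR adjusted p = 0.00914). Each stimulated library was below each unstimulated one. Both control calls were close to the threshold. That of Slc39a1 was lost with library totals alone (edgeR adjusted p = 0.12), without a count filter and in a fit of the compared groups. It was also lost without any 1 of 6 of the 7 control libraries and that of Slc40a1 without any 1 of the 7, with the direction kept. With the replicate block both control calls and the LTβRΔN call of Slc39a1 were lost. Slc11a1 (NRAMP1, the divalent metal carrier of the phagosome) did not pass, at 384 ± 79.0 and 387 ± 94.4 CPM in control libraries and 439 ± 58.6 and 401 ± 39.9 CPM in LTβRΔN libraries, with log2 fold changes of 0.01 (SE 0.17) and -0.13 (SE 0.15). The copper carriers Slc31a1 and Slc31a2 had log2 fold changes of -0.86 (SE 0.50) and 0.36 (SE 0.29) in control neutrophils, and Slc31a1 had 2.30 CPM in library 80 against 37.7 to 57.7 CPM in the other stimulated control libraries.

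Of 30 mitochondrial carriers 0 passed in control and 0 in LTβRΔN neutrophils (edgeR, smallest adjusted p 0.361 and 0.522), against 3.48% and 3.73% of all genes tested. In a group of this size such shares amount to few calls. An unadjusted p under 0.05 was found for 1 and 0 of them, against 11.4% and 13% of all genes. In control neutrophils 23 of 30 (77%) had a log2 fold change below 0, against 52% of all genes tested, and the median was -0.31 beside -0.02 for all genes. In LTβRΔN neutrophils 16 of 30 (53%) were below 0, against 52% of all genes, and the median was -0.09 beside -0.03. With library totals alone, the medians relative to all genes were -0.28 and -0.07. Leaving out each library in turn, 21 to 24 of 30 were below 0 in control and 16 to 20 in LTβRΔN neutrophils, and the median lay between -0.36 and -0.18 in control and between -0.17 and -0.01 in LTβRΔN neutrophils. Slc25a5 (ADP/ATP exchange) had 482, 474 and 422 CPM in unstimulated and 391, 434, 437 and 381 CPM in stimulated control libraries, with log2 fold changes of -0.16 (SE 0.12) and -0.09 (SE 0.11). Slc25a11 (2-oxoglutarate/malate exchange) was the member with an unadjusted p under 0.05. It had 208, 177 and 177 CPM without and 163, 161, 137 and 135 CPM with stimulation in control libraries, which did not overlap (log2 fold change -0.33, SE 0.14, edgeR adjusted p = 0.361), and a log2 fold change of -0.22 (SE 0.13) in LTβRΔN neutrophils. It was called lower in control neutrophils with library totals alone. Slc25a3 (phosphate import) and Slc25a37 (mitoferrin 1, iron import) had log2 fold changes between -0.12 and 0.16 in both genotypes.

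Among carriers of nucleosides and nucleotide sugars, Slc29a2 (ENT2, an equilibrative nucleoside carrier) passed in control neutrophils. It had 0 counts in 3 unstimulated control libraries and 20.4, 6.88, 6.24 and 0.499 CPM in the stimulated ones. It reached 10 counts in stimulated libraries only, so it entered the set through the libraries where it is high. Summed over the group, 247 of 31972542 counts stood against 0 of 26253582 (edgeR adjusted p = 0.0196). With up to 3 counts allowed for the latter, the pooled ratio had a lower bound of 67.6-fold. This bound covers counting error only and not the spread between libraries. Library 80 held most of the 247 counts, 151, and library 83 held 4. Without library 80 the bound was 34.8-fold and the edgeR adjusted p 0.067. In LTβRΔN neutrophils it was at 0 in 3 of 4 unstimulated and in 2 of 5 stimulated libraries, with at most 5.57 CPM (edgeR adjusted p = 0.405), and the interaction did not pass (edgeR adjusted p = 1.0). The 2 stimulated libraries at 0, numbers 75 and 78, held 1697583 and 2408608 counts, against at least 4437039 in stimulated control libraries. A count of 0 there bounds the level less tightly. The other 22 tested carriers of the group did not pass in control, nor did any of 23 in LTβRΔN neutrophils. The highest of them were Slc35c2 (log2 fold changes 0.20, SE 0.23 and -0.56, SE 0.21) and Slc35a5 (-0.43, SE 0.17 and -0.39, SE 0.15), and with library totals alone Slc35a5 was called lower in both genotypes and Slc35c2 in LTβRΔN neutrophils. The Golgi GDP-fucose carrier Slc35c1, needed for selectin ligands on neutrophils, had 26.6 ± 8.36 and 16.7 ± 5.35 CPM in control libraries (edgeR adjusted p = 0.811). Of 20 carriers of organic ions, vitamins, lipids and other solutes, 0 passed in either genotype, against 3.48% and 3.73% of all genes tested. The choline carrier Slc44a2, the highest of them, had 458 ± 31.2 and 410.5 ± 44.3 CPM in control libraries and 466 ± 93.4 and 399.5 ± 104 CPM in LTβRΔN libraries.

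**Figure D4:**
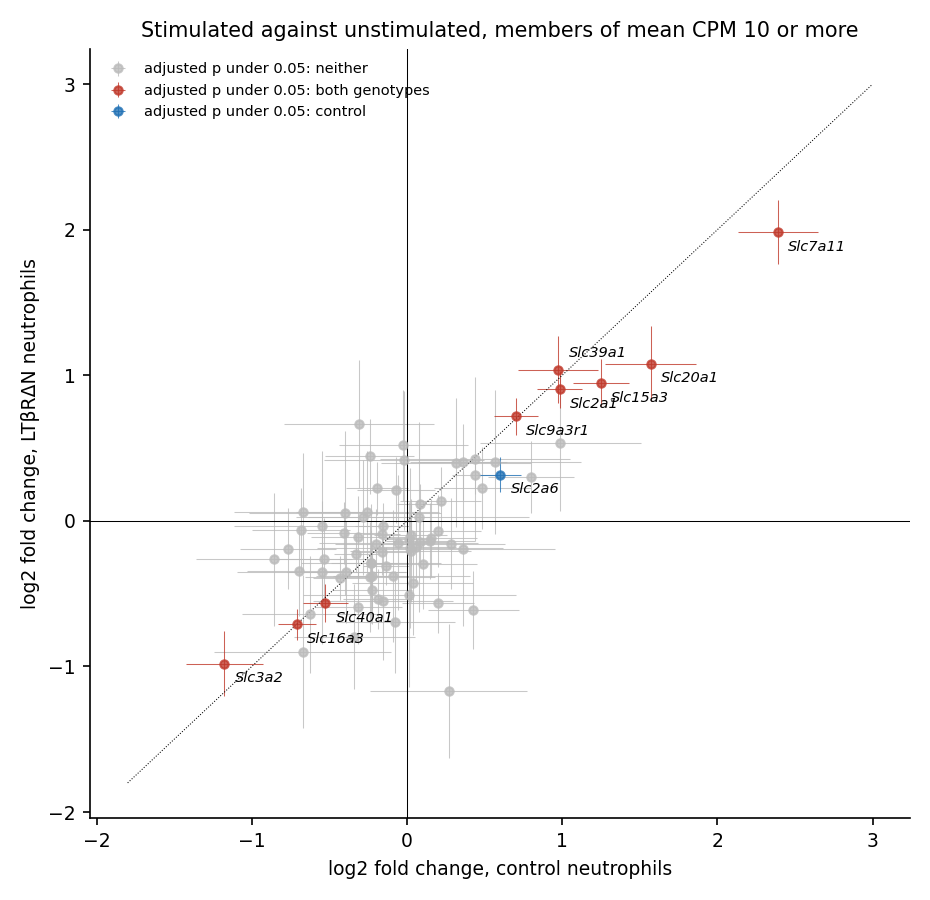
Log2 fold change with stimulation in LTβRΔN against control neutrophils for the 79 members of at least 10 CPM, with standard errors as lines and the line of equal change dotted. The 9 members called in both genotypes (red) lie near that line, Slc7a11 furthest out at 2.39 and 1.99, and Slc3a2 lowest at -1.18 and -0.98.

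Across the 79 members of at least 10 CPM, the log2 fold changes in the 2 genotypes had the same sign in 52 (65.8%) and a Pearson correlation of 0.728, beside 65.98% and 0.772 for all 5453 genes of that level, as a description over genes that share libraries within each genotype. Over all 149 members, most of the added ones of low counts, the same sign was found in 88 (59.1%) and the correlation was 0.21, beside 62.1% and 0.339 for all genes tested.

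The second question was whether loss of LTβR changed solute carriers. Between unstimulated LTβRΔN and control libraries, 0 of 149 members passed (edgeR, smallest adjusted p 1), against 0.0217% of all genes, and 3 members (2.01%) had an unadjusted p under 0.05, against 2.8% of all genes. Of these Slc7a11 was the one at high level, with 123 ± 43.3 CPM in LTβRΔN and 84.3 ± 37.2 CPM in control libraries, which overlapped (log2 fold change 0.57, SE 0.24). Between stimulated libraries 0 of 149 members passed (edgeR, smallest adjusted p 0.636), against 0.0217% of genes, and 14 (9.40%) had an unadjusted p under 0.05, against 6.41% of all genes. These 14 were spread over 6 of the 9 family groups. Named after their values were seen, Slc35c2 had 160, 113, 153 and 132 CPM in control and 118, 108, 90.9, 50.3 and 71.3 CPM in LTβRΔN libraries (log2 fold change -0.67, SE 0.21, edgeR adjusted p = 0.636), and Slc37a3 had 11.89 to 30.96 CPM in control and 32.2 to 50.7 CPM in LTβRΔN libraries (0.88, SE 0.28, edgeR adjusted p = 0.636). The first pair of groups overlapped and the second did not. Both genotype comparisons share libraries with the stimulation comparisons.

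The interaction, which asks whether the response to stimulation differed between genotypes, passed for 0 of 149 members and 0% of all genes (edgeR), and 10 members (6.71%) had an unadjusted p under 0.05, against 3.71% of all genes. For the 9 members called in both genotypes it lay between -0.49 (Slc20a1, SE 0.38) and 0.20 (Slc3a2, SE 0.33). All 8 members of the sugar group and all 5 of the monocarboxylate group had an interaction below 0, against 51% of all genes. Both groups follow the family number in the symbol, and among the 9 family groups they were picked as those with every member on 1 side. Members share libraries, so their signs are not independent. Their medians were -0.39 and -1.02 beside -0.01 for all genes, and 0 of these 13 passed (edgeR adjusted p = 1.0 for each). Slc16a3, the highest monocarboxylate member, had -0.0024, while Slc16a7 and Slc16a14 of that group reached at most 3.84 and 17.9 CPM in any library. The sugar members other than Slc2a1, Slc2a3 and Slc2a6 reached at most 14.95 CPM in any library. The mitochondrial carriers had a median interaction of 0.07. The glucose carriers Slc2a1, Slc2a3 and Slc2a6 had interactions of -0.08 (SE 0.19), -0.17 (SE 0.20) and -0.28 (SE 0.18).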

How the data were processed

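Bulk RNA of 16 blood neutrophil libraries was sequenced single-end on a HiSeq2500. The authors deposited 1 table of whole-number read counts per gene symbol, without normalization; the submitters' processing notes name Bowtie 1.0.0, TopHat 1.4.1, HTSeq 0.7.1 and mm10. Libraries were grouped by genotype and treatment label. A quasi-likelihood model of edgeR 4.0.16 (R 4.3.3) with a coefficient for each of 4 groups and TMM normalization was fitted to all 16 libraries after filterByExpr (minimum count 10, minimum total 15), which kept 9213 genes and 149 of 152 members (not Slc6a18, Slc32a1 and Slc39a10). Benjamini-Hochberg adjusted p-values over all 9213 genes were compared with 0.05, and two-sided contrasts were taken between treatments, between genotypes and for their interaction. RPKM used the exon length of GENCODE M21 on GRCm38, to which all 152 members were matched, 1 of them (Slc24a6, now Slc8b1) by an older symbol. Promoter windows came from RefSeq on GRCm38.p6.

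The members, family groups and gene lists were chosen with earlier results of these data known. Carriers were placed in a family group by the family number in the symbol, not by the solute of each one. Named are the members that passed (up to 15 per direction), 30 members among 37 carriers listed for known roles, the 2 members of highest level per family group, and those said to be named after their values were seen, apart from 1 member that is not reported here. The fit was tested on simulated data first. Within groups, 25 pairs of libraries differed beyond sampling noise (chi-square divided by its degrees of freedom 7.12 to 50.4), and each library was kept as its own replicate. Alternatives were DESeq2 size factors, upper-quartile scaling, library totals, other count filters, other thresholds, DESeq2 1.42.0, the compared groups alone, the library index as a covariate, a replicate block and each library left out in turn. The depth, 1094335 to 11932653 counts, sets the precision, and intervals from counts cover counting error only.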

Additional observations from a re-analysis of the deposited data

Results flagged for a closer look

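In groups of 4 or 5 libraries, the gap of the highest or lowest library to its neighbour was set against Dixon's limit at the 95% level for the 12 changed members. Slc29a2 in unstimulated LTβRΔN neutrophils was set apart by library 70, at 0.681 CPM (8 counts) with 0 in the other 3 libraries. With those at 0, any count in library 70 would have been flagged. Slc40a1 in stimulated LTβRΔN neutrophils was set apart by library 77, at 419 CPM with 664 to 737 CPM in the other 4. Of 36 such groups 2 stood out, where chance flags about 1 in 20, or 1.8 groups, of continuous values, which tied counts of 0 are not.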

How the results depend on the processing

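In control neutrophils 9 to 13 members passed under other scalings, count filters, a fit of the compared groups, the replicate block and DESeq2, beside 11 in the fit reported, and in LTβRΔN neutrophils 9 to 14, beside 10. With the library index as a covariate the counts were 4 (Slc7a11, Slc15a3, Slc2a1 and Slc16a3) and 0. In LTβRΔN neutrophils index and stimulation coincide, so that this fit rests on the index difference among control libraries. At an unadjusted p under 0.05 the counts were 21 and 22 for stimulation in control and LTβRΔN neutrophils, 3 and 14 for genotype without and with stimulation, and 10 for the interaction. Leaving out each library in turn gave 7 to 9 members in control and 8 to 10 in LTβRΔN neutrophils, the fewest in control without library 72 or 73. The genotype comparisons and the interaction gave 0 members at an adjusted p under 0.05 in every alternative run with edgeR or DESeq2. No called member changed direction in any alternative. The calls of Slc29a2, Slc39a1 and Slc40a1 in control and of Slc16a14 in LTβRΔN neutrophils were the ones lost most often, and the cause was not tested.

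The number in the column names, which recurs in unstimulated and stimulated libraries of a genotype, was tried as a replicate block. The fit reported does not use it. Over 7 pairs of libraries with the same number, the correlation of their deviations from the group means was 0.0214 to 0.0694, and a library correlated best with its own number in 6 of 7. With the block 9 members passed in control, 9 in LTβRΔN neutrophils and 0 for the interaction. In LTβRΔN neutrophils it gained Slc2a6 (edgeR adjusted p = 0.0422) and lost Slc16a14 and Slc39a1 (0.284 and 0.0586), and in control it gained Slc35e1 and lost Slc29a2, Slc39a1 and Slc40a1. The genotype comparisons could not be fitted with the block, since no number occurs in both genotypes. Depth limits the 52 members under 1 RPKM, for which only large differences could be detected.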
